A study of Arabidopsis thaliana with 18 samples.

Results

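In Arabidopsis thaliana of the accession Mt-0, 157 genes known here only by a locus code were moderately higher after SA in the first of 3 array sets. SA is taken to be salicylic acid, a hormone of plant immunity. The 157 genes were found among 11933 probe sets that match exactly 1 gene with a locus code as its name, which is 1.32% of them, out of 22810 probe sets on the ATH1 array. The genes were chosen by the signals of set 1: on the scale log2(signal + 16), the smallest of the 3 differences between same-numbered SA and silwet arrays had to be 0.8 or more and under 1.5. AT3G13610 was left out by the rule. The values of set 1 therefore describe the choice and are not tested, while sets 2 and 3 took no part in it.

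The study holds 18 arrays. In each of sets 1, 2 and 3, plants that received SA at 0.30 mM in 0.02% silwet (3 arrays) are set against plants that received 0.02% silwet alone (3 arrays). Silwet, a wetting agent for sprays, is thus shared by all groups, and every array is of the same accession. The sets are runs of consecutive serial numbers in the array titles, and the labels say neither what separates the sets nor the tissue, the age of the plants or the time after treatment. Nothing in the labels says that replicates were grown separately, and the p-values then cover spread among these samples only, part of which can be technical. Fewer cells of a type and less RNA per cell cannot be told apart in such samples.

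Salicylic acid accumulates in plant tissue after attack by biotrophic pathogens. It is perceived by proteins of the NPR1 family, which act with TGA transcription factors to switch on defence genes. Upstream of it, receptor-like kinases at the cell surface detect microbial molecules, nucleotide-binding leucine-rich repeat (NLR) and TIR-domain proteins inside the cell detect pathogen effectors, and proteins of the EDS1 family relay the TIR signal. Downstream, secreted hydrolases such as chitinases and glucanases reach the cell wall and the apoplast.

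Among the 157 genes, a protein family was given by hand from background knowledge for 80, and none was given for 77. The 80 included 17 protein kinases, 10 NLR or TIR-domain proteins, 5 calcium or calmodulin binding proteins, 5 transferases, 4 aspartyl proteases, 4 chitinases or glucanases and 4 ubiquitin ligase-type proteins. DnaJ co-chaperones, heavy-metal-associated domain proteins, membrane transporters, oxidoreductases and protein phosphatases of type 2C had 3 genes each, and 16 were of other families. These families were given after the values had been seen, and no test was made on them. The list may be incomplete, and genes among the 77 can belong to the same families, so the family counts may be too low. The share of each family among all probe sets with a locus code was not counted.

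In set 1 the mean difference of the 157 genes ran from 0.86 to 2.61, with a median of 1.30, beside a median of -0.02 over all 22746 Arabidopsis probe sets. The 3 SA arrays lay above the 3 silwet arrays without overlap in 153 genes, where 11.2% of all probe sets did so, and the rule itself fixes most of this. The pairs were unequal. The median difference was 1.63 in replicate 1, 1.20 in replicate 2 and 1.15 in replicate 3. Replicate 1 gave the largest of the 3 differences in 118 genes, and replicate 3 gave the smallest in 87. The rule reads the smallest difference, so 47 of these moderately higher genes had a largest difference of 2 or more, and the 3 differences spanned more than 1 in 39 genes.

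**Figure D1:**
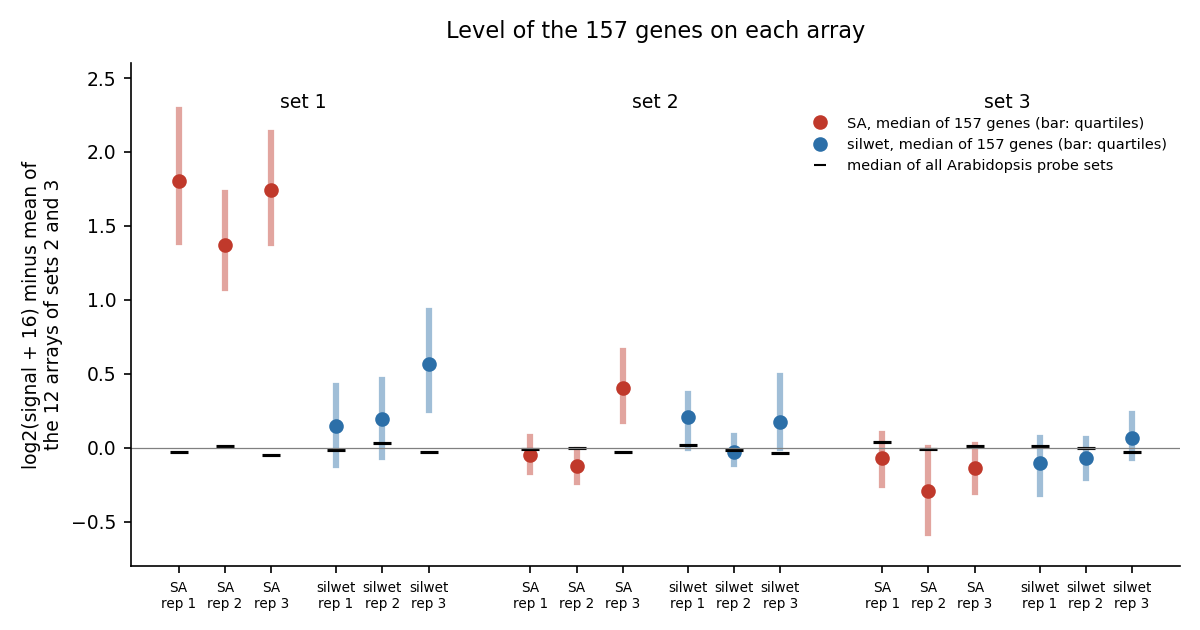
Median (point) and quartiles (bar) over the 157 genes of each gene's deviation from its own mean over the 12 arrays of sets 2 and 3, on the log2(signal + 16) scale, for each of the 18 arrays, with SA arrays left of silwet arrays; black dashes are the medians of all Arabidopsis probe sets. The medians of the 3 SA arrays of set 1 stand at 1.80, 1.37 and 1.74, and those of the other 15 arrays between -0.29 and 0.57.

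In 148 of the 157 genes all 3 SA arrays of set 1 were above all 15 other arrays, beside 6.23% of all probe sets. The genes were chosen for high values on these SA arrays, so this share describes the choice. In the remaining genes the highest other array was SA replicate 3 of set 2 (4 genes), silwet replicate 3 of set 1 (4 genes) or silwet replicate 3 of set 2 (1 gene). Relative to the mean over the arrays of sets 2 and 3, the genes' median was 0.57 on silwet replicate 3 of set 1, with 0.15 and 0.19 on replicates 1 and 2. On SA replicate 3 of set 2 it was 0.40, with -0.05 and -0.13 on replicates 1 and 2. Elsewhere replicate 3 was not higher in each group: the medians of replicates 1, 2 and 3 were 0.21, -0.03 and 0.18 on silwet arrays of set 2, and -0.07, -0.29 and -0.13 on SA arrays of set 3.

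Array-wide values moved little. The median signal of all probe sets per array was between 27.5 and 37.3, lowest on SA replicate 2 of set 3, which also had the lowest median of the 157 genes (-0.29). The log2 ratio of 3′ to 5′ ubiquitin control signal, a sign of RNA quality, was 1.12, 0.74 and 0.71 on the SA arrays of set 1 and between 1.15 and 1.81 on the other 15 arrays. Of 6 such ratios of ubiquitin, GAPDH and actin controls, this was the one without overlap between these SA arrays and the others. A ratio of GAPDH, for example, was -0.11 to 0.72 on the SA arrays of set 1 and -0.14 to 0.92 on the others. The part of RNA quality in the set 1 values was not tested. Of the leaf markers listed for the check of tissue, RCA, a chloroplast activase, had group means of 2323 to 3581 in signal, and SA minus silwet differences of -0.34, 0.17 and 0.14 in sets 1, 2 and 3. LHCB4.1 and LHCB4.2 are of the light-harvesting antenna. LHCB4.1 had -0.13, 0.03 and 0.14 in sets 1, 2 and 3, and LHCB4.2 had -0.18, -0.16 and 0.03. The listed leaf markers AT1G67090 and AT1G29910 were not named by the probe table. The root marker PYK10 had group means of 92.8 to 169 and differences of -0.02, -0.60 and -0.21 in sets 1, 2 and 3. The part of tissue makeup in the members' values was not tested.

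In set 2 most of the 157 genes lay near 0, as did most of all 22746 Arabidopsis probe sets. The median SA minus silwet difference of the 157 genes was -0.05 (all probe sets -0.00), with a range from -0.66 to 0.48. A mean above 0 was found in 61 of the 157 genes and in 11090 of the 22746 probe sets. No gene reached 0.8, which 0.119% of all probe sets did. Within 0.2 of 0 lay 111 of the 157 genes and 16576 of the 22746 probe sets. All 3 pairs were higher in SA for 8 genes, beside a background of 15.6%, and lower for 23 genes (14.6% of the 157), beside 15.1%. The groups were apart with SA higher in 2 genes (background 6.47%) and with SA lower in 6 (background 5.44%). The pairs pulled in different directions, with medians of -0.23, -0.07 and 0.18 in replicates 1, 2 and 3. The median of the 157 turned to positive values without SA replicate 1, SA replicate 2 or silwet replicate 3 of set 2 (0.02, 0.05 and 0.02), and was -0.21 without SA replicate 3.

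In set 3 the differences leaned to lower values in SA. The median was -0.09 (all probe sets 0.01), with a range from -0.91 to 0.48. A mean above 0 was found in 45 of the 157 genes and in 12160 of all 22746 Arabidopsis probe sets. No gene reached 0.8, beside 0.0352% of all probe sets. Within 0.2 of 0 lay 87 of the 157 genes and 16581 of the 22746 probe sets. At -0.4 or below were 21 of the 157 genes and 594 of the 22746 probe sets. All 3 pairs were lower in SA for 42 genes, or 26.8% of the 157, where the background was 11.6%, and higher for 12 genes, where it was 16.5%. The groups were apart with SA lower in 12 genes (background 2.64%) and with SA higher in 2 (background 4.51%). By pair the medians were 0.01, -0.22 and -0.19 in replicates 1, 2 and 3.

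**Figure D2:**
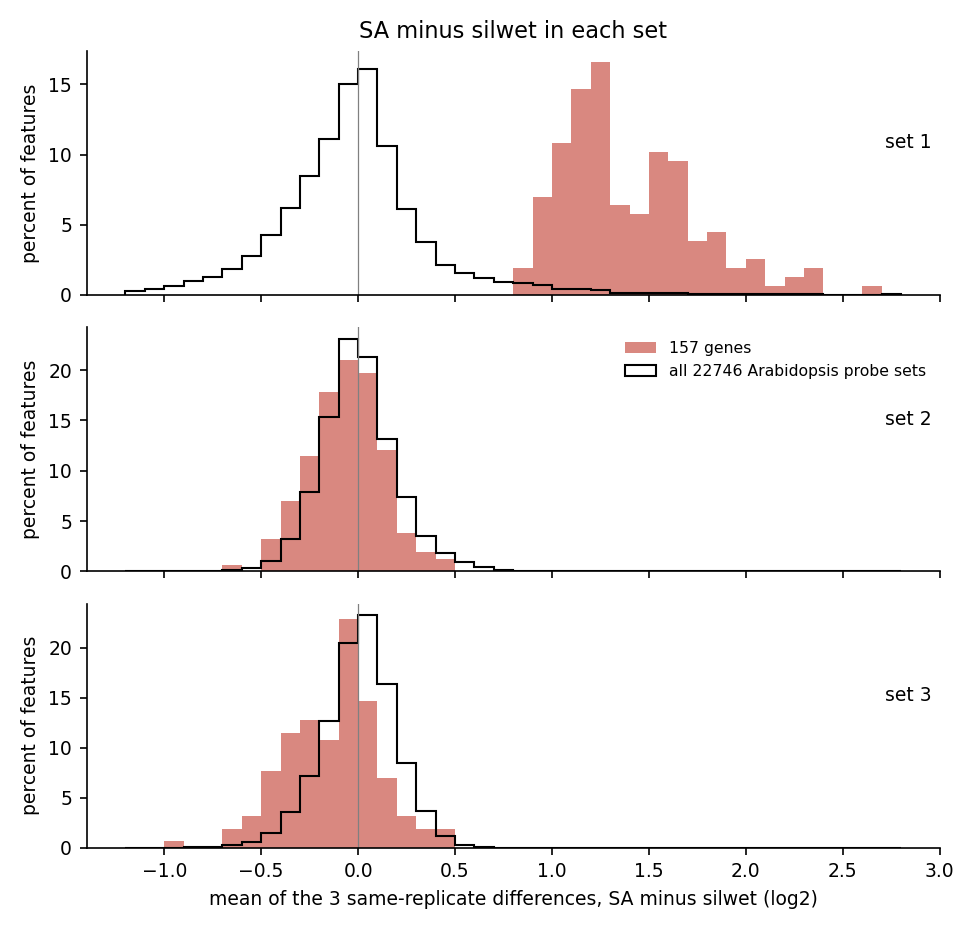
Histograms of the mean SA minus silwet difference in sets 1, 2 and 3, on the log2(signal + 16) scale, as percent of the 157 genes (filled) and of all Arabidopsis probe sets (outline, whose tails run past the axis). The genes lie between 0.86 and 2.61 in set 1 by choice, and between -0.66 and 0.48 in set 2 and -0.91 and 0.48 in set 3.

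A linear model (limma) over the 12 arrays of sets 2 and 3 called 0 of 13648 tested probe sets at an adjusted p of 0.05 for SA minus silwet in set 2, in set 3 or in their mean, so the background is 0% and no member was called. Of the 157 genes, 129 passed the filter on dim probe sets and were tested, and 28 were not. In set 2 the unadjusted p was under 0.05 for 1 gene with SA higher and 3 with SA lower (0.775% and 2.33% of the 129), beside 1.59% and 0.996% of all tested probe sets. In set 3 it was so for 0 genes with SA higher and 6 with SA lower (0% and 4.65%), beside 0.557% and 0.909%. The set 2 genes were AT5G01980, with SA higher, and AT1G35210, AT3G15760 and AT3G07090, with differences of -0.44, -0.43 and -0.35; the last 3 were singled out after their values were seen. For the mean of both sets it was so for 0 higher and 4 lower (0% and 3.1%), beside 0.381% and 0.55%. The smallest adjusted p of any of these genes was 0.999 in set 2. The labels state no pairing, and the replicate numbers were taken to pair the arrays. With the 6 pairs as a block limma also called 0 probe sets, while more unadjusted p-values were under 0.05. In set 2 these were 2 genes higher and 7 lower (1.55% and 5.43%), beside 5.27% and 2.91% of all tested probe sets. In set 3 they were 1 higher and 16 lower (0.775% and 12.4%), beside 2.12% and 3.6%. For the mean of both sets they were 0 higher and 8 lower (0% and 6.2%), beside 1.22% and 1.27%.

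The intervals of the same fit bound what could have been missed on the log2 scale used here. The upper end of the unadjusted 95% interval for SA minus silwet was under 0.8, the lower threshold of the choice, in 118 of the 129 genes in set 2, in 116 in set 3 and in all 129 for the mean of sets 2 and 3. With no filter on dim probe sets these counts were 142, 141 and 157 of 157. They include the dim genes, whose log2 differences are compressed by the constant added to each signal. For dim genes a small upper end therefore does not bound the change in signal itself. No share of all probe sets is given beside these counts, so they do not set the 157 genes apart from other probe sets. A mean difference of 0.8 or more was rare on the whole array, at 0.119% of all probe sets in set 2 and 0.0352% in set 3. The difference of the SA effect between sets, set 3 minus set 2, was called for 0 of 13648 probe sets. An unadjusted p under 0.05 was found for 0 of the 129 genes with the effect higher in set 3 and for 1 with it lower (0.775%), beside 1.28% and 2.45% of all tested probe sets. With the 6 pairs as a block these were 5 higher and 6 lower (3.88% and 4.65%), beside 4.24% and 7.79%.

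**Figure D3:**
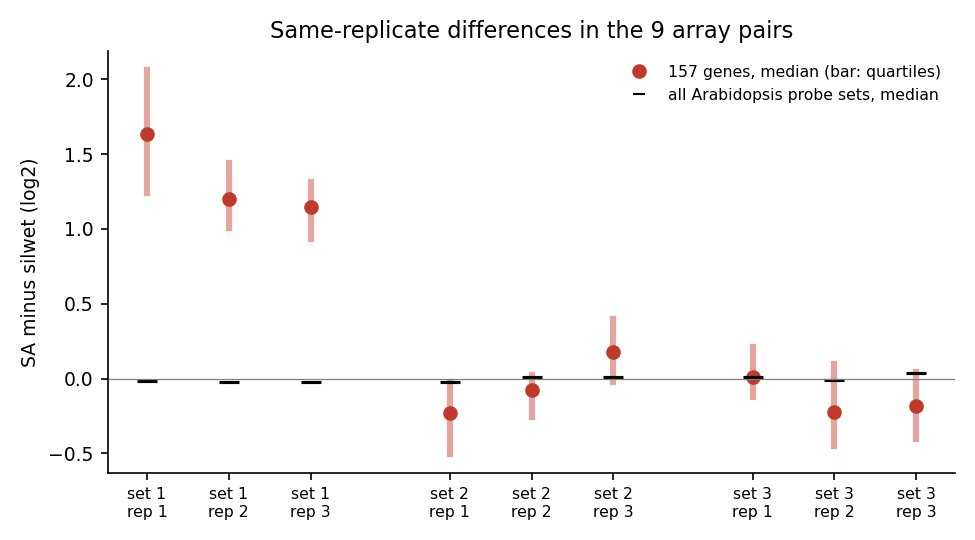
Median (point) and quartiles (bar) over the 157 genes of the SA minus silwet difference in each of the 9 same-numbered pairs, on the log2(signal + 16) scale, with dashes at the medians of all probe sets. The medians are 1.63, 1.20 and 1.15 in set 1, -0.23, -0.07 and 0.18 in set 2, and 0.01, -0.22 and -0.19 in set 3.

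Intracellular immune receptors and TIR-domain proteins were 10 of the genes chosen in set 1. The 10 genes had a median mean difference of 1.42 in set 1 (range 1.01 to 2.23), then -0.03 in set 2 and -0.01 in set 3. AT1G57630, which encodes a TIR-domain protein, had signals of 1114, 1031 and 1121 with SA and 114, 241 and 528 with silwet in set 1. The SA arrays were nearly equal while the silwet arrays differed among themselves, highest in replicate 3. In set 2 its signals were 113, 77.2 and 195 with SA against 154, 110 and 211 with silwet, and in set 3 they were 47.2, 38.2 and 59.0 with SA against 22.7, 50.1 and 117 with silwet. Every SA array of set 2 was thus below its own silwet partner, while the groups overlapped in both later sets. AT2G32140, another TIR-domain gene, had 251, 124 and 223 with SA against 8.92, 22.9 and 72.3 with silwet in set 1, and its group differences were -0.13 in set 2 and 0.05 in set 3. AT2G20142 and AT5G66890 had set 1 differences of 1.87 and 1.70, and set 2 and set 3 differences between -0.26 and 0.10.

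Receptor-like and other protein kinases formed the largest of the families given to the chosen genes. The 17 genes had medians of 1.22 in set 1, 0.04 in set 2 and -0.06 in set 3, and 11 had a mean above 0 in set 2 but 3 in set 3. AT1G51890, a leucine-rich repeat receptor-like kinase, had signals of 318, 330 and 407 with SA against 17.1, 54.5 and 147 with silwet in set 1. In set 2 it had 34.0, 34.1 and 117 with SA against 46.2, 34.0 and 85.5 with silwet, and in set 3 it had 51.5, 20.2 and 44.5 with SA against 31.8, 24.2 and 49.7 with silwet. In both later sets the groups overlapped, and replicate 3 of set 2 was high in either treatment. AT4G18250, a receptor kinase with a thaumatin-like outer domain, had 375, 162 and 382 with SA against 43.5, 54.0 and 137 with silwet in set 1, with differences of 0.31 in set 2 and -0.23 in set 3. AT1G74360, a leucine-rich repeat receptor-like kinase, was among the 6 genes with the highest mean over sets 2 and 3, from 0.39 in set 2 and -0.11 in set 3. AT1G72540 and AT5G41180, also kinases, had set 1 differences of 1.5004 and 1.59 and lay at -0.05 and -0.00 in set 2.

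Protein phosphatases of type 2C, a class with members that oppose kinase signalling, were represented by 3 genes. AT1G34750 had 703, 530 and 553 with SA against 216, 146 and 235 with silwet in set 1. Its set 2 signals were 80.7, 89.9 and 174 with SA against 156, 115 and 90.1 with silwet, which overlap. Its set 3 signals were 92.5, 66.0 and 52.0 with SA against 101, 95.9 and 92.1 with silwet, and the highest SA array there lay just above the lowest silwet array. AT4G31860 had differences of 1.17, 0.18 and -0.32 in sets 1, 2 and 3. AT5G10740 had 21.3, 12.1 and 20.3 with SA against 23.6, 34.8 and 29.3 with silwet in set 3, where the groups did not overlap. All 3 phosphatases were lower in all 3 pairs of set 3, as were 26.8% of the 157 genes and 11.6% of all probe sets, and their set 3 median was -0.41. AT5G10740 was also lower in all 3 pairs of set 2, and AT1G76070, for which no family is given, was the other gene lower in all 6 later pairs; it was singled out after its values were seen. No gene was higher in all 6. The shares of all probe sets were 0.941% lower and 1.33% higher in all 6 pairs.

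Calcium and calmodulin binding proteins are a class with members that decode calcium signals in the cell. The 5 genes given to it had medians of 1.62 in set 1, 0.05 in set 2 and -0.14 in set 3. AT3G01830, of the calmodulin-like EF-hand proteins, had 1099, 502 and 868 with SA against 69.9, 108 and 311 with silwet in set 1. In set 2 it had 38.7, 37.4 and 188 with SA against 91.2, 43.8 and 144 with silwet, and in set 3 it had 39.98, 17.7 and 34.2 with SA against 13.3, 29.6 and 41.4 with silwet. Both treatments overlapped in the later sets. AT4G34150, a C2-domain protein, had 1450, 1433 and 2136 with SA against 226, 619 and 1017 with silwet in set 1. AT3G47480, AT1G67800 (with a copine domain) and AT2G26190 (a calmodulin-binding protein) had set 1 differences of 1.98, 1.59 and 1.18. Whether AT1G67800 binds calcium was not checked, so its place in this class is uncertain. AT2G26190 lay at -0.45 in set 3, with SA replicate 2 the lowest array at 48.3.

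**Figure D4:**
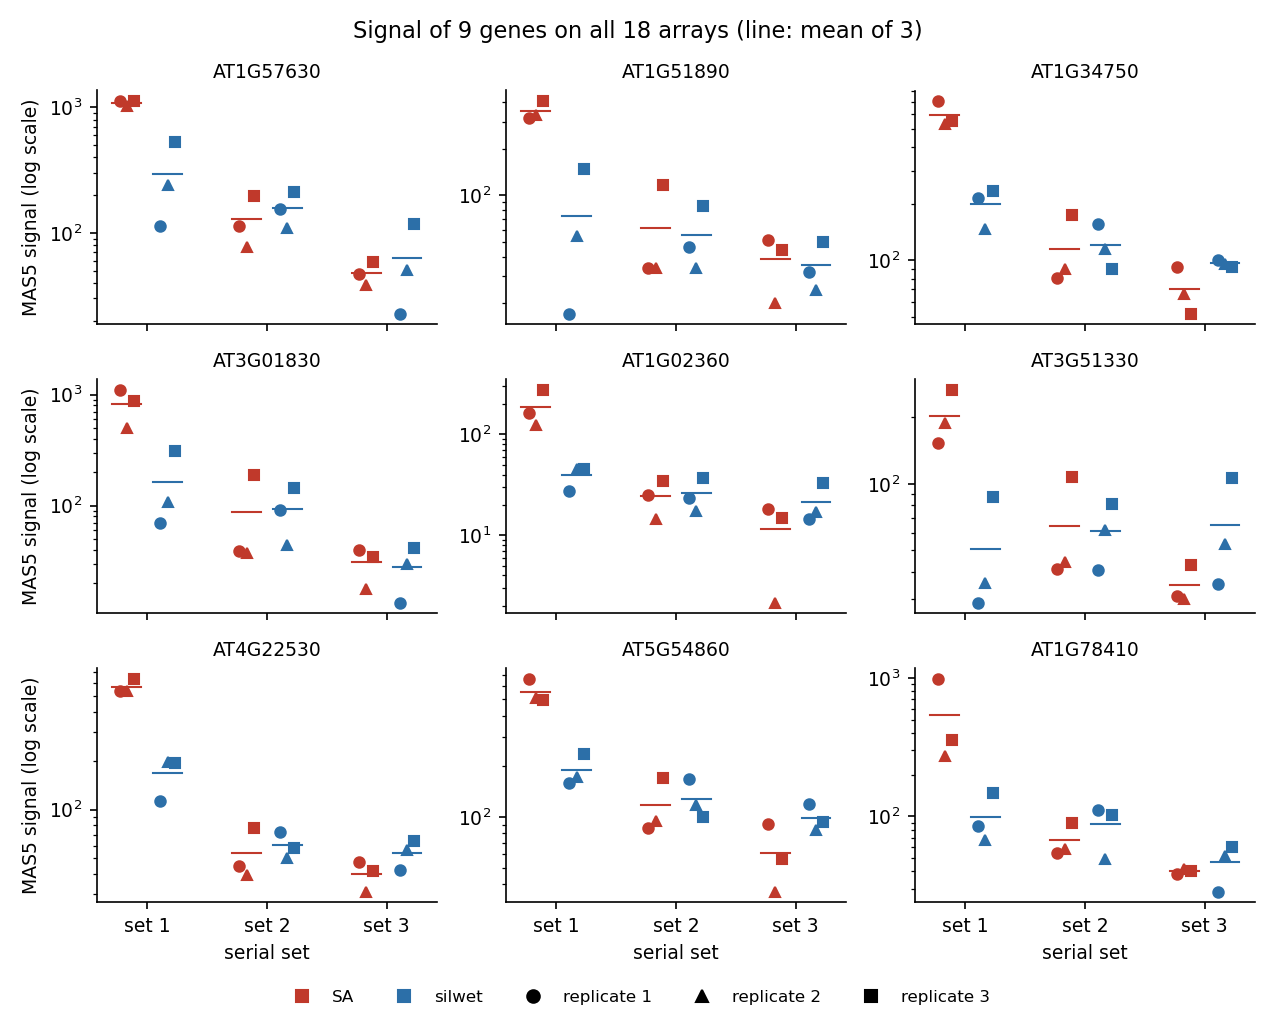
Signal of 9 named genes on each of the 18 arrays (log axis), by set, with SA left of silwet and lines at the mean of 3 arrays. In set 1 the SA arrays of each gene are above the silwet arrays, and in sets 2 and 3 the points of both treatments overlap in every panel.

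A pair of genes belongs to the NPR1 and EDS1 families described above. Both were singled out after their values were seen. AT4G26120 encodes an ankyrin-repeat BTB/POZ protein of the NPR1 family. It had 69.5, 62.1 and 61.9 with SA against 12.4, 15.7 and 18.7 with silwet in set 1, and its later differences were -0.22 in set 2 and 0.27 in set 3. AT3G48080, of the EDS1 family of lipase-like immune proteins, had 129, 149 and 201 with SA against 48.3, 45.7 and 96.9 with silwet in set 1. In set 3 it had 48.3, 15.3 and 31.3 with SA against 66.1, 44.9 and 59.7 with silwet, a difference of -0.66, while set 2 gave 0.05. For both genes the set 1 groups did not overlap, which the choice of genes largely fixes. AT3G48080 was not called in a later set, and AT4G26120 was too dim to be tested.

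The 4 chitinase and beta-1,3-glucanase family genes, which act on fungal and plant cell walls, had medians of 1.47, 0.12 and -0.23 in sets 1, 2 and 3. AT1G02360, a chitinase family gene, had 164, 125 and 275 with SA against 27.2, 45.7 and 45.3 with silwet in set 1. In set 2 it had 25.03, 14.5 and 34.4 with SA against 23.2, 17.3 and 37.3 with silwet, and in set 3 it had 18.0, 2.15 and 14.7 with SA against 14.4, 16.9 and 32.9 with silwet. Only SA replicate 2 of set 3 was clearly below the rest. AT4G01700, also of the chitinase family, had differences of 1.31, 0.14 and -0.55 in sets 1, 2 and 3, with the same array lowest in set 3 at 50.6. AT1G66250, a glucanase family gene, was 1.62 in set 1 and among the 6 genes with the highest mean over sets 2 and 3 (0.18 and 0.14). AT4G34480 had 1.07, 0.09 and -0.00.

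Aspartyl proteases, a family of mostly secreted or vacuolar enzymes, had medians of 1.27, 0.09 and -0.31 over 4 genes. AT3G51330 had 153, 189 and 266 with SA against 28.9, 35.6 and 87.1 with silwet in set 1. In set 3 it had 31.1, 30.2 and 42.6 with SA against 35.3, 53.5 and 106 with silwet, a difference of -0.59, and in set 2 the difference was -0.00. Each SA array of set 3 was below its silwet partner, as in 3 of the 4 proteases. This was so for 26.8% of the 157 genes and 11.6% of all probe sets. AT5G36260 was very dim outside the SA arrays of set 1, with 36.1, 16.2 and 35.04 with SA against 0.80, 1.23 and 1.07 with silwet there, so its log2 differences are compressed by the added 16. AT1G49050 and AT2G17760 had set 1 differences of 1.17 and 0.90, and set 3 differences of -0.54 and -0.08.

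The ubiquitin ligase-type proteins, which tag other proteins for degradation, had medians of 1.39, -0.01 and -0.05 over 4 genes. AT5G01980, with a RING-type domain, was the gene with the highest set 2 difference of all 157. It had 222, 141 and 157 with SA against 96.9, 130 and 129 with silwet in set 2, with no overlap, and 158, 123 and 114 with SA against 144, 157 and 157 with silwet in set 3. The set 2 difference was 0.48 ± 0.19 (SE, limma; unadjusted p = 0.0249, adjusted p = 0.999), and that of set 3 minus set 2 was -0.68 ± 0.27 (SE, limma; unadjusted p = 0.0246, adjusted p = 0.896). Neither passed. The U-box gene AT5G09800 had 1.87 in set 1, and the RING-type genes AT4G26400 and AT1G55530 had 1.30 and 0.88, with later differences of these 3 genes between -0.20 and 0.09.

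Among other enzymes, the 5 transferases had medians of 1.45, -0.12 and -0.30 in sets 1, 2 and 3. AT4G22530, a methyltransferase family gene, had 537, 539 and 637 with SA against 112, 196 and 194 with silwet in set 1. In set 2 it had 44.9, 39.6 and 76.9 with SA against 72.3, 50.1 and 58.4 with silwet, and in set 3 it had 47.5, 31.3 and 41.6 with SA against 42.4, 56.4 and 63.8 with silwet. The later groups overlapped, and all their arrays were below the lowest silwet array of set 1. The acyltransferase family genes AT5G42830 and AT5G01210 and the galactosyltransferase family gene AT1G77810 had set 1 differences of 1.68, 1.45 and 1.37. AT5G42830 was higher in all 3 pairs of set 3, by 0.26 on average, and AT5G01210 was lower in all 3, with a mean of -0.30. The 3 oxidoreductases, AT3G28480, AT5G64250 and AT3G44190, had set 1 differences of 1.20, 1.03 and 1.28 and a set 3 median of -0.23.

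All 3 membrane transporters were lower in all 3 pairs of set 3, beside the same 26.8% of the 157 genes and 11.6% of all probe sets. AT5G54860, of a folate and pterin transporter family, had 660, 509 and 492 with SA against 159, 173 and 235 with silwet in set 1. In set 3 it had 90.1, 36.0 and 56.2 with SA against 119, 83.3 and 93.7 with silwet, a difference of -0.63 ± 0.29 (SE, limma; unadjusted p = 0.0490, adjusted p = 0.9999). Its highest SA array of set 3 lay above the lowest silwet array, so the groups overlapped. AT4G23030, of the MATE efflux family, and AT1G80510, of an amino acid transporter family, had set 1 differences of 1.22 and 1.04 and set 3 differences of -0.43 and -0.24. The 3 DnaJ co-chaperones, AT4G28480, AT3G14200 and AT1G71000, which assist heat shock proteins, had set 1 differences of 1.55, 1.09 and 1.13, and all 3 had means below 0 in set 3. The heavy-metal-associated domain genes AT5G60800, AT3G07600 and AT3G20180 had 1.29, 1.22 and 1.05 in set 1 and all 3 had means above 0 in set 3 (0.02 to 0.13).

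**Figure D5:**
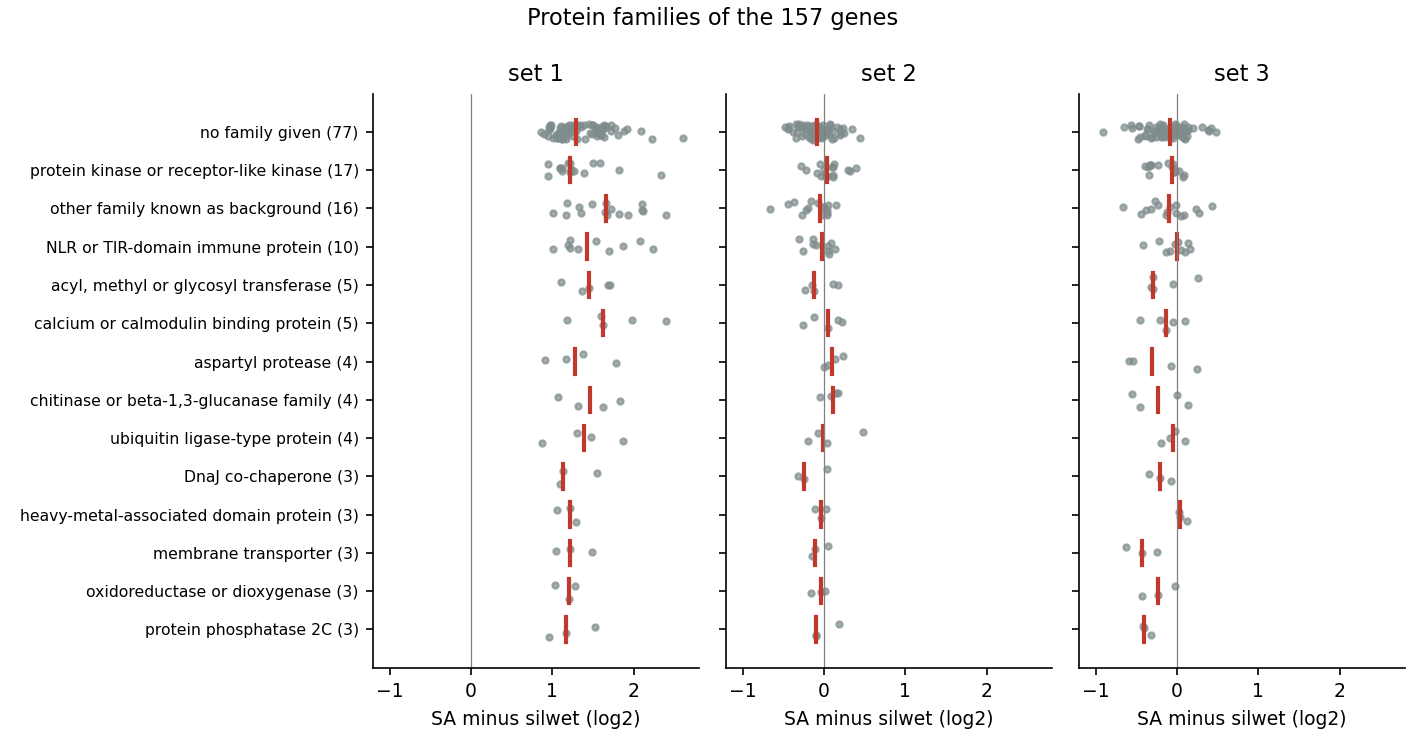
Mean SA minus silwet difference of each gene by family in sets 1, 2 and 3, on the log2(signal + 16) scale, with red lines at the family medians. In set 3 the phosphatases and transporters lie at or below -0.24, and in set 1 every gene is above 0.8 by choice.

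Of the genes of other families, AT1G43910, an AAA-type ATPase, had 995, 862 and 800 with SA against 79.7, 135 and 326 with silwet in set 1, a difference of 2.40. AT1G78410, a VQ-motif protein of a family that binds WRKY factors, had 983, 273 and 356.2 with SA against 84.8, 67.0 and 147 with silwet there. In set 2 AT1G78410 had 54.4, 58.0 and 89.7 with SA against 111, 49.2 and 102 with silwet, and in set 3 it had 38.2, 41.8 and 39.9 with SA against 28.6, 52.0 and 59.96 with silwet. Its SA replicate 1 of set 1 stood far above its other arrays. AT3G60420 and AT3G60450, both of the phosphoglycerate mutase family, were near the upper threshold. AT3G60420 had 2184, 2076 and 2047 with SA against 348, 417 and 738 with silwet in set 1. AT3G60450 had 230, 147 and 164 with SA against 251, 222 and 266 with silwet in set 3, a difference of -0.44 ± 0.19 (SE, limma; unadjusted p = 0.0422, adjusted p = 0.9999). AT1G69840, of the band 7 family that includes hypersensitive-induced reaction proteins, and AT3G52470, of the LEA hydroxyproline-rich family, had set 1 differences of 1.66 and 1.67 and set 3 differences of -0.12 and -0.01.

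The 77 genes with no family given had medians of 1.29, -0.09 and -0.09, close to those of all 157. AT3G18250 had the largest set 1 difference of all 157 genes, with 1527, 1109 and 1365 with SA against 72.6, 190 and 563 with silwet. In the later sets it had 341, 388 and 740 with SA against 428, 447 and 968 with silwet in set 2, and 394, 787 and 726 with SA against 252, 539 and 732 with silwet in set 3. Its mean differences were -0.30 in set 2 and 0.38 in set 3, within overlapping groups. AT5G55420 had the most negative set 3 difference, with 132, 118 and 133 with SA against 185, 240 and 360 with silwet, which do not overlap. That difference was -0.91 ± 0.33 (SE, limma; unadjusted p = 0.0165, adjusted p = 0.9999), while set 2 gave -0.01. AT2G23680, AT3G62780, AT4G29520 and AT1G23840 were the others among the 6 lowest over sets 2 and 3, with set 3 differences of -0.56, -0.46, -0.31 and -0.57. At the other end, AT4G05030 and AT4G38560 were among the highest over sets 2 and 3. AT4G05030 had 0.40 in set 3 and -0.04 in set 2, and AT4G38560 had 0.44 in set 2 and -0.01 in set 3.

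Levels of the 157 genes also differed between the sets within a treatment. SA arrays of set 3 were below those of set 2 by a median of -0.23 (all probe sets 0.02). The difference was above 0 in 29 genes (18.5%, beside 54.8% of all probe sets). Silwet arrays of set 3 were below those of set 2 by a median of -0.13 (all probe sets 0.01), with 42 genes above 0 (26.8%, beside 52.1%). Silwet arrays of set 1, which the choice used, were above those of set 2 by a median of 0.20 and above those of set 3 by 0.30. In 131 genes they were higher on average than in set 3 (83.4%, beside 49.9% of all probe sets). In 50 genes the silwet arrays of set 1 were all above those of set 3, beside 6.28% of all probe sets. The fit called 0 of 13648 probe sets for set 3 minus set 2 in SA or in silwet arrays, a background of 0%. Unadjusted p-values under 0.05 with set 3 lower were found for 20 of the 129 tested genes in SA arrays (15.5%, beside 2.66% of all) and for 9 in silwet arrays (6.98%, beside 1.42%), and with set 3 higher for 0 genes in each (0%, beside 2.15% and 1.35%). With the replicate number as a block, the counts with set 3 lower were 33 in SA arrays (25.6%, beside 4.46%) and 20 in silwet arrays (15.5%, beside 2.29%), and those with set 3 higher were 0 in each (0%, beside 3.36% and 2%). Without the block, leaving out SA replicate 3 of set 2 reduced the count of 20 to 3, and leaving out SA replicate 2 of set 3 reduced it to 5. AT1G57630, AT3G02840 and AT4G19370 were on both lists without the block. AT3G02840 and AT4G19370 were singled out after their values were seen. In AT1G57630 set 3 minus set 2 was -1.10 ± 0.40 in SA arrays (SE, limma, unadjusted p = 0.0165, adjusted p = 0.869). In its silwet arrays it was -1.28 ± 0.40 (SE, limma, unadjusted p = 0.0071, adjusted p = 0.9996). AT3G02840 had -0.95 in SA arrays and -1.18 in silwet arrays, and AT4G19370 had -0.67 and -0.59.

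Genes near the thresholds of the rule are given here on both sides. Just inside the lower threshold were AT1G50740, AT5G62150 and AT5G39785, with smallest differences of 0.801, 0.804 and 0.806, and just outside it were AT1G12290, AT1G66880 and AT3G04640, with 0.792, 0.794 and 0.79997. At the upper threshold, AT3G60420, AT3G60450 and AT1G67800 were inside with 1.45, 1.47 and 1.49991, and AT1G72900, AT1G02270 and AT3G09010 outside with 1.50012, 1.51 and 1.53. The set 2 and set 3 differences of these 12 genes ran from -0.51 to 0.24. Across the 157 genes, which are not independent replicates, the mean difference of set 1 had r = -0.14 with that of set 2 and 0.26 with that of set 3, and sets 2 and 3 had r = -0.26.

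Some of the genes lie side by side on the chromosomes. By gene order, 7 pairs had at most 4 protein-coding genes between them, and 3 of these were direct neighbours: AT1G57630 and AT1G57650, AT3G15760 and AT3G15770, and AT3G52470 and AT3G52480. Chromosomes 1 to 5 held 26.1, 8.92, 24.8, 18.5 and 21.7% of the 157 genes, beside 26.0, 16.5, 20.5, 14.4 and 22.6% of all probe sets with a locus code. The probe sets of AT5G24810 and AT2G23480 can match several transcripts, so their values are uncertain.

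Of 27 genes known for SA synthesis, signalling and response, 4 were named and tested. These 4 carry a symbol as their name, and the rule took only genes named by a locus code, so they are not among the 157. In set 1 SAG101, WRKY53, GRX480 and UGT76B1 had mean SA minus silwet differences of 1.12, 1.52, 2.50 and 3.58, which were not tested. SAG101, which works with EDS1, had SA minus silwet differences of 0.08 in set 2 and -0.21 in set 3. WRKY53, a transcription factor, had -0.00 and -0.37. GRX480, a glutaredoxin that binds TGA factors, had -0.31 and -0.15. UGT76B1, a glucosyltransferase that conjugates SA, had -0.07 and 0.50, and none of the 4 was called in either set.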

How the data were processed

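RNA of 18 samples was measured on ATH1 arrays. The deposited values are probe set signals, an intensity on a linear scale made with MAS5, per the submitters' processing notes, with no version; the authors' annotation is not given in the sources used here. Each array had been scaled to a trimmed mean of 100.01. The members and gene lists were chosen with earlier results of these data known.

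Gene names came from the probe table of the platform, in which 13513 of 22810 probe sets had 1 gene, 503 had several, 8730 were not in it and 64 were controls. RefSeq's TAIR10.1 table held 154 of the 157 genes, with no other symbol. It holds no product text, so the planned classes could not be applied, and families were given from background knowledge. Genes were named by rule: up to 4 per family by median set 1 difference, the 5 highest SA signals of set 1, the 6 highest and 6 lowest over sets 2 and 3, and the 3 nearest each threshold on either side. Where other genes are named, the text says so or gives the feature that singled them out.

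Signals were taken as log2(signal + 16), which compresses differences of dim probe sets, and the 12 arrays of sets 2 and 3 were fitted with limma 3.58.1 in R 4.3.3 (lmFit, eBayes with a trend, 4 group means). The upper 60% by mean were tested, two-sided, with Benjamini-Hochberg adjustment at 0.05. The fit was tested on simulated data. Same-numbered arrays deviated together to an unequal degree (correlations 0.128 to 0.770 over the 9 pairs). The numbers were therefore taken to pair the samples, which the labels do not state. The intervals and SE values in the text are of the fit without a block. The number of arrays limits the precision. Alternatives were other pseudocounts, normalizations, filters, array weights, pairing and each array left out. No sequences were used.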

Additional observations from a re-analysis of the deposited data

Results flagged for a closer look

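Of the 157 genes, all higher with SA in all 3 pairs of set 1 by choice, 42 (26.8%) were lower with SA in all 3 pairs of set 3, beside 11.6% of all probe sets. In set 2, 23 (14.6%) were lower in all 3 pairs, beside 15.1% of all probe sets, a share near the background. The opposite direction from set 1 is what put both counts here. Since set 1 chose the genes, the difference between the sets was not tested.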

How the results depend on the processing

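The count of 0 called probe sets was the same in all 6 comparisons under each alternative run for them, also with a replicate block (0 calls), except that array weights gave 2 calls for the SA arrays, set 3 minus set 2; the estimation of the weights stopped before it converged. The block of 6 pairs was run for the 4 SA effects, and not for the comparisons of set 3 with set 2 within a treatment, since each pair lies in 1 set; these had the replicate number as block. The rule found 292 genes with a pseudocount of 1 (130 of the 157 among them) and 75 with a pseudocount of 64 (57 of the 157), against 157 with 16, and 172 to 222 with 1 replicate left out. With 1 replicate left out, fewer pairs have to be lower, so these counts cannot fall. In set 2, 32 genes (20.4%, beside 25% of all probe sets), 33 (21.0%, beside 26.9%) and 82 (52.2%, beside 28.2%) were lower in every remaining pair without replicates 1, 2 and 3, against 23 in all. In set 3, 81 (51.6%, beside 20.9%), 56 (35.7%, beside 20.6%) and 54 (34.4%, beside 27.4%) were so, against 42. The sign counts were added after seeing the data. The causes were not tested. The fit used 3 arrays a group, and 28 of the genes were too dim to be tested.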
